A study of Mus musculus with 6 samples.

Results

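Transcript levels of 10 mouse genes of the Polycomb and DNA methylation machinery were measured in 6 primary cell lines of small cell lung carcinoma: Ezh1, Ezh2, Eed, Suz12, Bmi1, Dnmt1, Dnmt3a, Dnmt3b, Uhrf1 and Tet1. They were chosen by name, as the core enzymes and partners of these systems, with earlier results of these data known. Every probe of each gene was taken. That gave 15 probes of 10 genes, out of 18749 genes with a named probe on the array. The lines came from lung tumours of C57BL/6J mice with the genotype Rb1L/L, Trp53L/L, conditional alleles of both tumour suppressors that every line in the study shares. 3 lines were labelled non-SMC and 3 were labelled SMC, an abbreviation the labels do not spell out. The labels tie each SMC line to a non-SMC line as a pair, 3 pairs in all, with pairs 1 and 3 from female mice and pair 2 from a male mouse. How the alleles were deleted, the age of the mice, any agent given to the cells, and whether a line is 1 clone are details that the sources used here do not give. The comparison asks which of these genes differed in transcript level between the SMC line and the non-SMC line of a pair.

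Polycomb proteins keep genes silent through 2 complexes. Polycomb repressive complex 2 (PRC2) methylates histone H3 at lysine K27 and is built from a methyltransferase, EZH2 or EZH1, with EED and SUZ12, and PRC1, to which BMI1 belongs, ubiquitylates histone H2A and compacts chromatin. DNA methylation is a separate silencing system, in which DNMT3A and DNMT3B add methyl groups to unmethylated sites, DNMT1 copies the pattern onto the new strand after replication, UHRF1 brings DNMT1 to those sites, and TET1 oxidises methylated cytosine, a step towards its removal. RB1 restrains E2F transcription factors, and EZH2, DNMT1 and UHRF1 are among the genes commonly described as E2F targets, which is why the promoters below were searched for E2F-type sequences.

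RefSeq promoter windows of 250 bases before an annotated start were available for all 10 genes, 15 windows in all, on build GRCm38.p6. 4 E2F-type letter strings were searched on both strands, TTTCGCGC, TTTGGCGC, TTTCCCGC and TTTGCCGC, together with an NRF1-type string, GCGCA followed by any base and GCGC. An E2F-type string stood in 3 of the 10 genes, Dnmt1, Uhrf1 and Suz12, and the NRF1-type string in 2, Ezh2 and Ezh1. By window that was 3 and 2 of the 15, and no matches overlapped. Among all 32851 windows of the same length, TTTCGCGC was found in 0.256%, TTTGGCGC in 0.417%, TTTCCCGC in 0.895%, TTTGCCGC in 0.338%, any of the 4 in 1.86% and the NRF1-type string in 3.74%. The 5 windows with a match are printed 5′ to 3′ on the gene's strand, with the matched letters in capitals. Dnmt1 and Uhrf1 carry the same string. They lie at chr9:20952624-20952873 on the minus strand for Dnmt1, chr17:56304063-56304312 on the plus strand for Uhrf1, chr11:79992856-79993105 on the plus strand for Suz12, chr6:47595031-47595280 on the minus strand for Ezh2 and chr11:101226464-101226713 on the minus strand for Ezh1.
Dnmt1: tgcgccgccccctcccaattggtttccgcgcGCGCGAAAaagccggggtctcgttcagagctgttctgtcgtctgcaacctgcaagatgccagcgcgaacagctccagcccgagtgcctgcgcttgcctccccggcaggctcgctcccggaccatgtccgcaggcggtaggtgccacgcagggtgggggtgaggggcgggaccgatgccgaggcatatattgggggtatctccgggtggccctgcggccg
Uhrf1: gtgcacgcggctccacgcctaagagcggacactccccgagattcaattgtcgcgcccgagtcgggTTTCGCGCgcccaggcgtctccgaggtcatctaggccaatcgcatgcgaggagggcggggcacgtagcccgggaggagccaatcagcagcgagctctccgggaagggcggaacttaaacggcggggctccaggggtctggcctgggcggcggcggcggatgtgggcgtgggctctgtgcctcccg
Suz12: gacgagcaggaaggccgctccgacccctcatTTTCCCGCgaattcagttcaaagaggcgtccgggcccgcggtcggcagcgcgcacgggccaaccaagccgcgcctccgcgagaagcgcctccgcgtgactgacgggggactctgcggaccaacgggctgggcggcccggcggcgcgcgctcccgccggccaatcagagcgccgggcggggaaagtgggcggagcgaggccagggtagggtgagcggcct
Ezh2: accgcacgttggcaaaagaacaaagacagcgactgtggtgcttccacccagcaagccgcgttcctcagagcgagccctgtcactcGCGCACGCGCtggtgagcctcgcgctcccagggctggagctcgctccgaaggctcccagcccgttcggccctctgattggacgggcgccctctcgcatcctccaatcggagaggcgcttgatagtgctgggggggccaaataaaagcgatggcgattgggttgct
Ezh1: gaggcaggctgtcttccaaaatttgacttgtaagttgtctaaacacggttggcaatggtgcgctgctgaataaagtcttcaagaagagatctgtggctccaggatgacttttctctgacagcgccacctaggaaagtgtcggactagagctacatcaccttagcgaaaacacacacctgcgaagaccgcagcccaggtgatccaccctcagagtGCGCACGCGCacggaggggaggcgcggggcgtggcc
The Dnmt1 match, in window 3 of that gene, reads as TTTCGCGC on the opposite strand and begins 219 bases before the start of that window's transcript. The Uhrf1 match, in window 2 of that gene, begins 185 bases before its start. The other Dnmt1 and Uhrf1 windows, before other annotated starts, held no match. The Suz12 match, TTTCCCGC, also begins 219 bases before the start. The NRF1-type string begins 165 bases before the Ezh2 start and 36 bases before the Ezh1 start. The 15 windows held 2 to 40 CpG dinucleotides, the sites that DNMT enzymes methylate, against a median of 6 over all windows. Every string searched holds a CpG, and the windows with a match held 14 to 37. The shares over all windows are therefore not a background of like CpG content. The highest counts were in the first 2 of the 3 Dnmt3a windows, with 38 and 40. A match describes letters only, and the arrays measured neither binding nor methylation.

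Each line was hybridised to 1 array with 1 dye. Levels are log2 of the processed signal minus the 75th percentile of the array, so 0 marks a probe as bright as that percentile, and a difference of 1 is a 2-fold change. The share of the 41174 probes well above background was 64.1% to 68.5% per array. Of 26683 tested probes, 54 (0.202%) were higher and 857 (3.21%) were lower in SMC lines at an adjusted p under 0.05 in limma with the pair in the fit, and the smallest difference called was 1.99 in size. Trp53 was at 0.14, -0.36 and -0.10 in non-SMC 1 to 3 and at -0.30, -0.28 and -0.02 in SMC 1 to 3. Rb1 was at -2.07, -0.38 and -2.09 in the non-SMC lines and at 0.63, 0.63 and 0.27 in the SMC lines, a difference of 2.02 ± 0.45 (SE) with an adjusted p of 0.106. Where these probes lie relative to the deleted parts is not given, so they do not check the alleles. The 12 neuroendocrine markers averaged 2.51, 3.01 and 2.63 in SMC lines and -3.82, 1.98 and -2.28 in non-SMC lines, and all 12 were above background in non-SMC 2 and SMC 2. Neurod1 was not in any of the other 4 lines, and non-SMC 1 also lacked Insm1 and Scg2. Mesenchymal markers were detected for 10 to 11 of 11 genes in non-SMC lines and 5 to 7 in SMC lines. Epithelial markers were detected for 4 to 7 of 7 genes in non-SMC lines and 5 to 7 in SMC lines, and alveolar and club cell markers for 3 to 4 of 5 in both. Leukocyte markers were detected for 3, 5 and 9 of 9 genes in non-SMC 1 to 3 and for 3 to 6 in SMC lines, and endothelial markers for 1 of 6 on every array. In RNA from a whole culture, fewer cells of a type and less RNA per cell cannot be told apart.

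All 15 member probes were well above background on all 6 arrays, so none entered the test through 1 group. None of the 15 passed the adjusted threshold, and the lowest adjusted p was 0.110, for Tet1. All 15 differences were above 0, as were 57.6% of those of all tested probes, and 13 were above 0 in each of the 3 pairs, against 33.2% of all probes. On 11 probes of 8 genes every SMC value lay above every non-SMC value, which held for 22.6% of all probes, and on none did every SMC value lie below (16.0% of all probes). At an unadjusted p under 0.05, 7 probes of 6 genes were higher in SMC lines, against 15.1% of all probes. The median difference of the member probes was 0.93, against 0.16 over all probes. The pairs gave member medians of 0.65, 0.54 and 1.02, against 0.01, 0.19 and 0.22 over all probes. The standard errors of the members, 0.27 to 0.64, limit what 3 pairs can show, and the smallest increase this fit called on the array was 2.24.

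**Figure D1:**
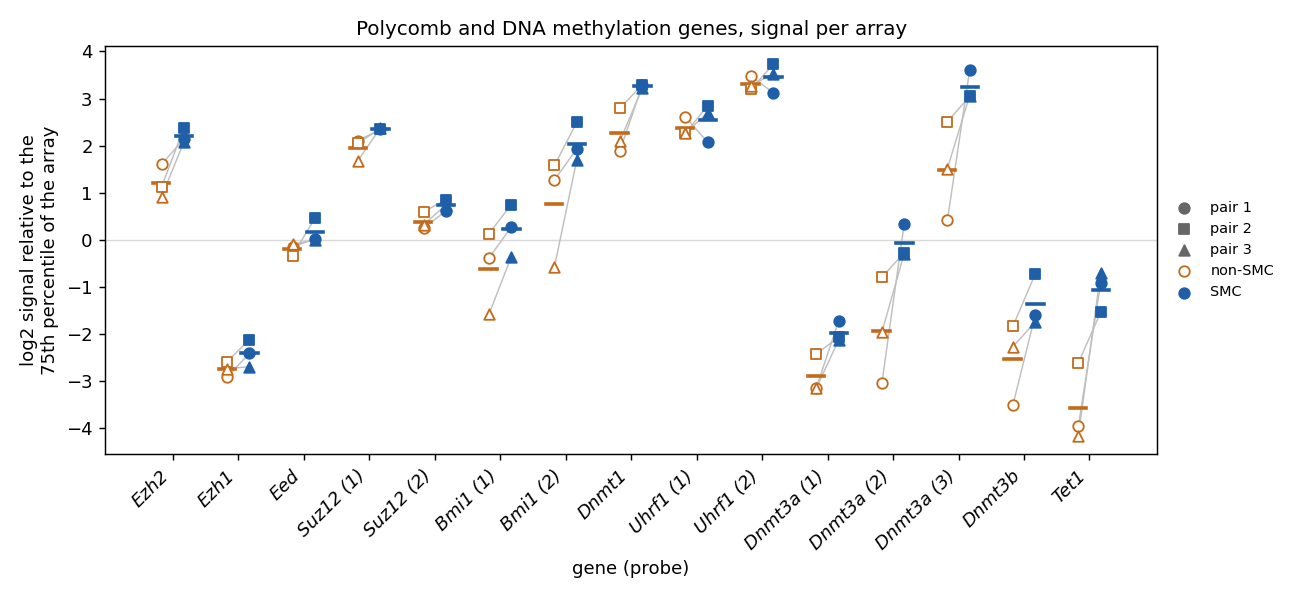
Log2 signal relative to the 75th percentile of the array for each of the 15 member probes, with open orange symbols for non-SMC lines, filled blue symbols for SMC lines, shapes and grey lines for the pairs and bars for group means; probes of a gene are numbered in the order of the text. Tet1 has the widest gap between the groups, 1.08, and the groups overlap for Ezh1, the first Bmi1 probe and both Uhrf1 probes.

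Ezh2, the main catalytic subunit of PRC2 in dividing cells (probe A_51_P248067), was at 1.61, 1.13 and 0.91 in non-SMC 1 to 3 and at 2.14, 2.37 and 2.08 in SMC 1 to 3. The groups did not overlap, and non-SMC 1 was the highest of its group. The difference was 0.98 ± 0.31 (SE, 3 pairs; 95% interval 0.12 to 1.84), 1.97-fold, and it did not pass after adjustment (limma, adjusted p = 0.155). By pair it was 0.53, 1.25 and 1.17. Ezh1, the alternative catalytic subunit that is typical of resting cells (A_52_P237871), was at -2.91, -2.58 and -2.73 in non-SMC lines and at -2.41, -2.12 and -2.69 in SMC lines. The groups overlapped, since SMC 3 lay below non-SMC 2. The Ezh1 difference was 0.34 ± 0.29 (interval -0.46 to 1.13; adjusted p = 0.494), and it was 0.19 with SMC 2 left out and no pairing in the fit.

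Eed, the subunit that binds methylated H3K27 (A_51_P238643), was at -0.15, -0.33 and -0.09 in non-SMC lines and at 0.02, 0.46 and -0.00 in SMC lines. The groups were parted by only 0.09, and SMC 2 accounted for the highest value. The difference was 0.35 ± 0.31 (interval -0.51 to 1.20; adjusted p = 0.511), and without pair 2 it was 0.13. Suz12, the scaffold subunit that the complex needs for its stability, had 2 probes, A_51_P214796 and A_52_P302203. The first was at 2.11, 2.05 and 1.68 in non-SMC lines and at 2.34, 2.36 and 2.37 in SMC lines, which are nearly equal to one another. Its difference was 0.41 ± 0.29 (interval -0.38 to 1.20; adjusted p = 0.405), and without pair 3 it was 0.27. The second Suz12 probe gave 0.35 ± 0.27 (adjusted p = 0.448), with groups parted by 0.02. The PRC2 core was thus measured with a difference of 0.98 for Ezh2 and of 0.34 to 0.41 for the 4 probes of the other 3 subunits, and the gap between Ezh2 and the others was not tested.

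Bmi1, a PRC1 subunit known for repressing the Cdkn2a locus, also had 2 probes, A_51_P121547 and A_52_P39157. The first was at -0.38, 0.13 and -1.58 in non-SMC lines and at 0.27, 0.75 and -0.36 in SMC lines, and the second at 1.27, 1.58 and -0.57 against 1.93, 2.49 and 1.69. Non-SMC 3 was the lowest on both probes. The groups overlapped on the first probe and not on the second. The differences were 0.83 ± 0.30 (interval -0.00 to 1.66; adjusted p = 0.184) and 1.28 ± 0.44 (0.07 to 2.48; adjusted p = 0.170). On the second probe pair 3 gave 2.26, while pairs 1 and 2 gave 0.66 and 0.91, and without pair 3 the estimate was 0.78. With only non-SMC 3 left out and no pairing in the fit, the 2 probes gave 0.35 and 0.61.

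Dnmt1, the maintenance methyltransferase (A_51_P195573), was at 1.89, 2.80 and 2.10 in non-SMC lines and at 3.28, 3.29 and 3.21 in SMC lines. The SMC lines were nearly equal and all lay above non-SMC 2, the highest non-SMC line. The difference was 1.00 ± 0.33 (interval 0.10 to 1.89), 1.99-fold, with an adjusted p of 0.162. By pair it was 1.39, 0.49 and 1.11. Uhrf1, its partner at newly replicated DNA, gave other values on its 2 probes, A_51_P491742 and A_52_P314705. Its first probe was at 2.60, 2.27 and 2.27 in non-SMC lines and at 2.07, 2.84 and 2.70 in SMC lines, and its second at 3.47, 3.19 and 3.27 against 3.13, 3.72 and 3.53. SMC 1 was the lowest line of all 6 on both probes, so pair 1 ran the other way (-0.53 and -0.34) from pairs 2 and 3. The differences were 0.16 ± 0.36 (interval -0.83 to 1.16; adjusted p = 0.802) and 0.15 ± 0.32 (-0.74 to 1.04; adjusted p = 0.797), and without pair 2 they were -0.048 and -0.045. Dnmt1 and Uhrf1, which share TTTCGCGC in a promoter window, thus had differences of 1.00 and of 0.15 to 0.16, a gap that was not tested.

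**Figure D2:**
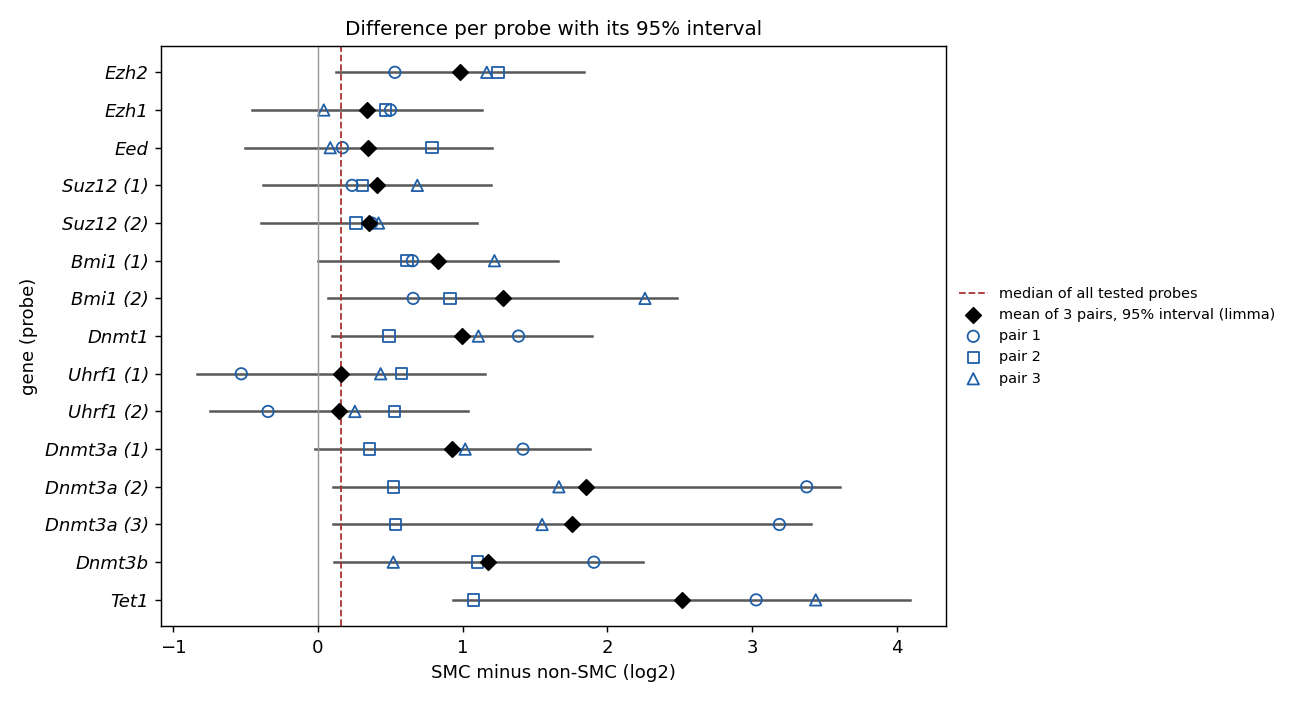
SMC minus non-SMC difference (log2) of each member probe as a black diamond with its 95% interval from limma, open symbols for the 3 pairs and a dashed line at the median of all tested probes, 0.16. All diamonds lie above 0, and the intervals of Ezh1, Eed, Suz12, Uhrf1, the first Bmi1 probe and the first Dnmt3a probe reach below 0.

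Dnmt3a, a de novo methyltransferase, had 3 probes, A_52_P169048, A_52_P30497 and A_52_P76146, and the third is assigned to another RefSeq transcript of the gene than the first 2. On the first it was at -3.13, -2.42 and -3.14 in non-SMC lines and at -1.72, -2.06 and -2.12 in SMC lines. On the second it was at -3.04, -0.79 and -1.96 against 0.34, -0.27 and -0.29, and on the third at 0.41, 2.51 and 1.51 against 3.60, 3.05 and 3.06. The groups did not overlap on any of the 3 probes, non-SMC 2 was always the highest non-SMC line, and SMC 1 was always the highest line. The differences were 0.93 ± 0.35 (adjusted p = 0.188), 1.86 ± 0.64 (interval 0.11 to 3.60; adjusted p = 0.170) and 1.76 ± 0.60 (0.11 to 3.41; adjusted p = 0.170). Pair 1 gave 3.19 on the third probe, pair 2 gave 0.54 and pair 3 gave 1.55, so the pairs spread more than for Ezh2 or Dnmt1. Without pair 1 the second and the third probe gave 1.09 and 1.04. Dnmt3b, the other de novo enzyme (A_51_P341540), was at -3.51, -1.83 and -2.27 in non-SMC lines and at -1.60, -0.73 and -1.74 in SMC lines. The groups were parted by 0.09, with non-SMC 2 and SMC 3 as neighbours. Its difference was 1.18 ± 0.39 (interval 0.11 to 2.24), 2.26-fold, with an adjusted p of 0.163, and it was 0.69 with non-SMC 1 left out and no pairing in the fit.

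Tet1, the dioxygenase that starts the removal of DNA methylation (A_51_P512172), had the largest difference of the 10 genes. It was at -3.95, -2.61 and -4.15 in non-SMC 1 to 3 and at -0.92, -1.54 and -0.71 in SMC 1 to 3. The groups were 1.08 apart, with non-SMC 2 and SMC 2, the lines of pair 2, nearest to each other. The difference was 2.51 ± 0.58 (interval 0.94 to 4.09), 5.71-fold with a wide interval of 1.91 to 17.1, and an adjusted p of 0.110. By pair it was 3.03, 1.08 and 3.44. Without the replicate block, in a fit that ignores the pairing, the same difference had an adjusted p of 0.0395, and it was the only member probe called. That fit called 465 probes higher (1.74%) and 1384 lower (5.19%). The call of Tet1 thus depends on whether the pairs enter the fit, and also on the lines used. With any line other than non-SMC 2 left out of the unpaired fit, Tet1 did not pass. Leaving non-SMC 2 out of that fit gave 2121 probes higher (7.95%), among them Tet1 at 2.99 (adjusted p = 0.0096), Dnmt1 at 1.26 (0.0403), the second Dnmt3a probe at 2.42 (0.0304) and the third at 2.27 (0.0339). Over all alternative settings the adjusted p of Tet1 ranged from 0.0096 to 0.365, and its difference from 1.65 to 3.23. Of the other TET enzymes, Tet3 had a difference of 1.01 (adjusted p = 0.157) and Tet2 of 0.21 (adjusted p = 0.735).

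The pairs ranked differently from gene to gene. On the brightest probe of each gene, pair 2 had the smallest difference for Dnmt1, Dnmt3a and Tet1, pair 1 for Ezh2, Suz12, Bmi1 and Uhrf1, and pair 3 for Ezh1, Eed and Dnmt3b. Pair 2 is also the pair whose non-SMC line had all 12 neuroendocrine markers above background. Chga, a protein of neuroendocrine secretory granules, differed by 10.2, 1.18 and 5.83 in pairs 1 to 3. Mesenchymal markers were above background in larger number in all non-SMC lines, non-SMC 2 included. The part of cell identity in the member differences was not tested. Proliferation was read from 25 tested genes, of which none passed, with a median difference of 0.41 and pair medians of -0.02, 0.64 and 0.62. Its part in the member differences was not tested either.

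4 arrays, SMC 1, SMC 2, non-SMC 2 and non-SMC 3, lay on 1 slide, and only pair 2 had both of its lines on it. Within those 4 arrays, with no replicate block, the differences were 2.15 for Tet1, 1.24 for Ezh2, 0.83 for Dnmt1, 1.31 for the third Dnmt3a probe and 0.88 for Dnmt3b. None of the 15 passed there, and the adjusted p of Tet1 was 0.183.

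By a fixed measure of likeness, the root mean square difference of the 6 centred levels between the brightest probes, Ezh2 was most like Supt16 (0.08), Homez (0.09) and Faap100 (0.09). Tet1 was most like Klc1 (0.09), Ptprn2 (0.16) and Dmxl2 (0.20), against its own spread of 1.37. Dnmt1 was nearest to Irf2bp1 (0.09), Trak1 (0.09) and Mindy2 (0.09), and Dnmt3a to Mbp (0.18), Grtp1 (0.18) and Mapk1ip1 (0.21). Bmi1 had no neighbour nearer than Trim36 (0.24), and Dnmt3b none nearer than Cobl (0.19), against own spreads of 0.96 and 0.84. The own spreads of Ezh2 and Dnmt1 were smaller, 0.54 and 0.57. Likeness over 6 arrays describes the array pattern only.

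The other genes of the pathways were read as 11 lists, with the brightest tested probe of each gene, against 0.180% of named genes called higher and 3.78% called lower. None of the 138 genes was higher and 3 were lower in SMC lines. Of the lower genes, Zfp57 and Bmp4 entered the test only through the non-SMC group, where they were brighter. With detection required on all 6 arrays, 1 list gene was called lower. Of 11 PRC2 partners none passed, and their median difference was 0.67. Jarid2, which recruits PRC2 to chromatin, was at 0.04, 1.72 and 0.33 in non-SMC lines and at 2.33, 2.75 and 2.79 in SMC lines, a difference of 1.92 (adjusted p = 0.103). Phf1, a Polycomb-like PRC2 partner, had -1.29 (adjusted p = 0.117). Of 23 PRC1 subunits none passed (median 0.39). Among them Cbx2, which reads methylated H3K27, had 1.79 (adjusted p = 0.101) and Pcgf6 had 1.21 (adjusted p = 0.145). None of 10 genes of H3K27 demethylation and the H2A deubiquitinase passed (median 0.59). Their largest value was for Asxl3, whose brightest probe (A_51_P225535) was well above background on no non-SMC array. With dim arrays counted at the floor, its group means were at least 3.38-fold apart, an estimate that leaves out the spread between lines. The limma fit gave 2.28 (fold interval 1.93 to 12.2; adjusted p = 0.102). Over all alternatives the Asxl3 difference ranged from 0.37 to 2.78. A second Asxl3 probe was above background on 1 non-SMC array, that of non-SMC 2, and gave 3.05 (adjusted p = 0.126). Foxk2 of the same list had 0.76 on its brightest probe (adjusted p = 0.228), while its other probes gave 0.32 and -0.30. With no replicate block, that is without the pairing, 3 of the 138 list genes passed as higher. That limma fit called 1.74% of all tested probes higher. The genes were Mtf2, a PRC2 partner (1.16, adjusted p = 0.0395), Asxl3 (adjusted p = 0.0305) and E2f6, a repressive E2F found in a PRC1 complex (1.24, adjusted p = 0.0496). Of these, Asxl3 entered the test only through the SMC group, where it was brighter.

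Of 15 DNA methylation cofactors 1 was lower, Zfp57, a zinc finger protein that protects methylation at imprinted genes. It was at -3.36, -2.53 and -2.84 in non-SMC lines and at -8.55, -5.54 and -6.80 in SMC lines, where only 1 of 3 arrays was well above background. The difference was -4.05 ± 0.52 (adjusted p = 0.043), and with dim signals raised to the floor it was -3.17. Its adjusted p was 0.0545 with quantile normalization and 0.0599 with normexp, where the difference was -1.16, and over all alternatives it ranged from 0.0193 to 0.185. None of 8 methyl-CpG readers passed (median 0.17; Zbtb4 -1.57), and none of 11 demethylation genes (median 0.22; Gadd45a -1.56, Idh1 -1.40). Of 18 germline genes that DNA methylation silences in body cells, 7 were above background on no array and only 3 could be tested, none of which passed. Brdt had 1.61 (adjusted p = 0.138) and Sycp1 0.64 (adjusted p = 0.498). Rhox5, the remaining tested gene, had -0.49 (adjusted p = 0.848), with 2.02, 0.96 and -4.46 in pairs 1 to 3.

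The list of textbook Polycomb targets also held the schlafen genes Slfn8 and Slfn9. It gave 2 of 11 tested genes as lower and none as higher. The median difference was -1.63, which is the value of Slfn9, and it was -0.78 without pair 2. That median lay between -1.55 and -0.78 whichever pair or line was left out. 25 genes of the list were on the array, and 5 of them were above background nowhere. Cdkn2b, a cell cycle inhibitor next to Cdkn2a, was at 4.05, 3.74 and 4.70 in non-SMC lines and at -0.47, -3.24 and -1.95 in SMC lines. All SMC lines lay far below all non-SMC lines, with a difference of -6.05 ± 0.60 (limma, adjusted p = 0.025). Bmp4, a growth factor of the BMP family, fell from -0.16, -0.58 and 0.33 to -3.58, -6.85 and -5.05, a difference of -5.02 ± 0.65 (adjusted p = 0.043), with 2 of 3 SMC arrays above background. Without pair 3 neither passed (adjusted p of 0.122 and 0.189), nor on the shared slide alone (0.0953 and 0.148), and Bmp4 also missed the threshold without pair 1 (0.0521), without pair 2 (0.0615), with no filter on dim probes (0.0709) and with slide in the fit (0.0627). Cdkn2a, the locus Bmi1 is known for, was at 2.14, 2.45 and 1.25 in non-SMC lines and at 1.30, 1.44 and 0.53 in SMC lines, negative in all 3 pairs at -0.86 ± 0.28, which missed the threshold (adjusted p = 0.157). Of the 11 targets 4 had differences above 0, and 3 of these were positive in all 3 pairs without passing: Cdkn1c, another cell cycle inhibitor, at 4.30 (adjusted p = 0.208), Tbx3 at 2.36 (adjusted p = 0.0995) and Lhx2 at 1.79 (adjusted p = 0.107). Many Polycomb targets are also genes of particular cell lineages, and the mesenchymal markers, at a mean of 2.24 to 3.53 in non-SMC lines and -5.90 to -4.99 in SMC lines, ran in the direction of Cdkn2b and Bmp4. Their part was not tested.

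**Figure D3:**
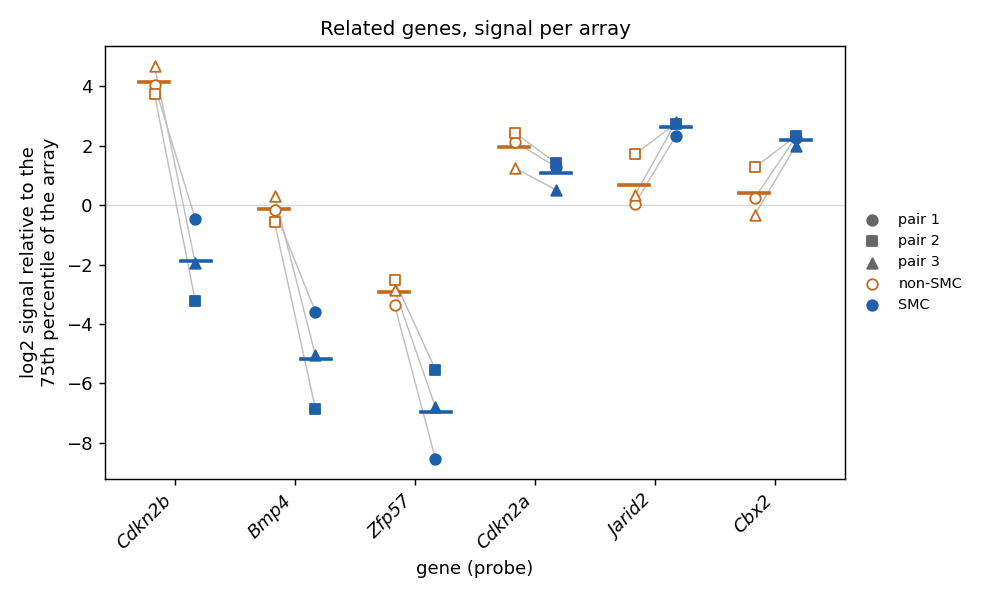
Log2 signal relative to the 75th percentile of the array for 6 genes of the related lists, with symbols as in the plot of the member probes. Cdkn2b, Bmp4 and Zfp57 passed the test as lower in SMC lines, and Cdkn2a, Jarid2 and Cbx2 did not pass; 1 of the SMC arrays for Bmp4 and 2 for Zfp57 were not well above background.

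None of the 25 proliferation and E2F target genes passed. E2f2, an activator E2F, had the largest value, 2.99 (adjusted p = 0.117). It was at 0.94, 7.32 and 1.27 in non-SMC 1 to 3 and at 4.28, 8.46 and 5.75 in SMC 1 to 3. The groups overlapped, since non-SMC 2 lay above SMC 1 and SMC 3. Ccne2, an S-phase cyclin, had 2.03 (adjusted p = 0.078). None of the 13 genes of the E2F and RB family passed (median 0.66), and none of the 10 trithorax and MLL genes, whose complexes oppose Polycomb (median 0.50; Kmt2c 1.00, Kmt2b 0.64). No difference between these lists and the members was tested.

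**Figure D4:**
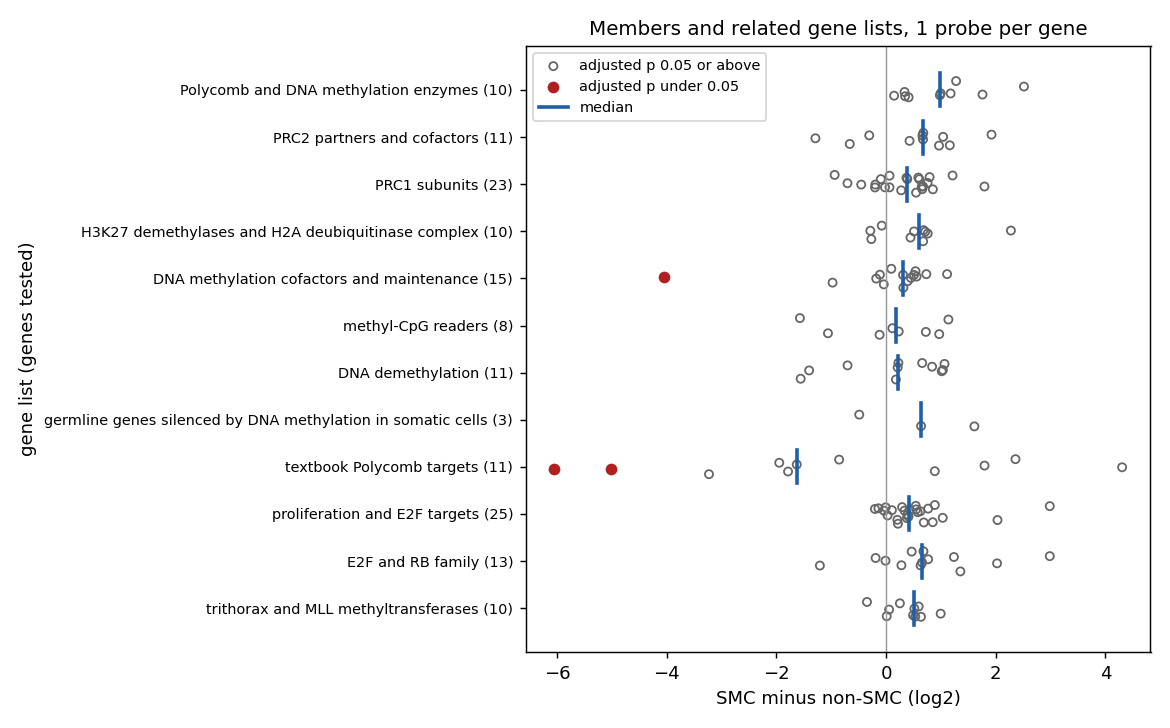
SMC minus non-SMC difference (log2) of each tested gene, 1 probe per gene, for the 10 members and the 11 related lists, with a blue bar at each list's median and red points where the adjusted p was under 0.05. All 10 members lie above 0, and the 3 red points, all lower in SMC lines, belong to the DNA methylation cofactors and the Polycomb targets.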

How the data were processed

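Per the file headers, 1-colour Agilent arrays (design 014868) were quantified with Feature Extraction 10.7.3.1. The deposited processed intensity is background-subtracted and not normalized between arrays, and the deposited series table holds quantile-normalized log2 values, settled by comparison with each array. For other upstream steps nothing was stated (not given in the sources used here). Spots of controls and flagged outliers were left out, and spots of 1 probe were averaged. Levels were log2 processed signals with each array's 75th percentile subtracted (485 to 696 intensity units). Testing required a probe to be well above background on every array of either group. The files name probes by transcript accession, and 27479 of 41174 probes were given symbols through RefSeq (GRCm38.p6); the headers name the older build mm9, so no probe coordinates are given.

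The test was limma (lmFit and eBayes, two-sided, version 3.58.1) with pair and group, and Benjamini-Hochberg adjustment over 26683 probes (2 residual and 2.13 prior degrees of freedom). P-values rest on how the SMC minus non-SMC difference varied between these pairs, with variances moderated by a prior from all tested probes. They cover these lines only. The pairing comes from the labels; same-pair deviations correlated at -0.01, 0.13 and 0.00, different pairs at -0.14 to 0.13. The fit was tested on simulated data. Members and lists were chosen with earlier results of these data known. Named were all member probes; per list up to 4 genes past the threshold or, if none, the 2 with the largest difference; and Rb1 and Trp53. Cdkn2a, Cdkn1c, Tbx3, Lhx2, Tet2, Tet3, Mtf2, E2f6, Rhox5 and Chga were chosen after their values were seen. Some genes within this rule are not reported here. For "at least", each dim array counted at its own value or, if higher, at the lowest signal well above background. Alternatives covered normalization, background, filters, probe choice, block, slide, left-out lines, a floor and the variance prior.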

Additional observations from a re-analysis of the deposited data

How the results depend on the processing

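Over 22 alternatives, 318 of 320 member differences stayed above 0 and 5 passed the threshold. Without replicate 2, both Uhrf1 probes reversed (-0.048 and -0.045; without replicate 1 they were at their highest, 0.51 and 0.39). The members passing were Tet1 with no replicate block (2.51), and, also without non-SMC replicate 2, Tet1 (2.99), Dnmt1 (1.26) and 2 Dnmt3a probes (2.42 and 2.27). With no replicate block, the pairing left out, 465 probes were higher and 1384 lower, and no call of another member changed. In that fit 3 list genes were higher, namely Mtf2 (1.16), Asxl3 (2.28) and E2f6 (1.24). Asxl3 entered the test only through the SMC group. Probes higher numbered 88 with quantile normalization, 509 with median scaling (1393 lower), 106 with normexp, 11 with no filter (564 lower), 7 with detection on all 6 arrays (217 lower), 31 with the brightest probe per gene, 33 with the mean of a gene's probes, 20 with slide beside the pair and 35 on the shared slide. Without single pairs they ranged from 0 to 779, with 0 to 741 lower, and without single lines and no block from 29 to 2121, with 592 to 1637 lower (147 higher without non-SMC replicate 1 and 133 without SMC replicate 2). Without pair 3, limma called 0 in either direction. List genes called lower were 1 with no filter, with detection on all 6 arrays and with slide beside the pair. They were 0 on the shared slide and 0 to 3 with lines or pairs left out. List genes called higher reached 10 of 138 without non-SMC replicate 2 and no block. That fit called 7.95% of all tested probes higher. Sycp1 reversed on the shared slide (-0.49) and without non-SMC replicate 1 and no block (-0.19). The causes were not tested. With single pairs or lines left out, the median difference ranged from -1.55 to -0.78 for the Polycomb targets, 0.28 to 0.66 for proliferation, 0.23 to 0.56 for the PRC1 subunits, 0.08 to 0.30 for the methyl-CpG readers, 0.25 to 0.52 for demethylation and 0.22 to 0.57 for the DNA methylation cofactors. Over all alternatives, 46 of 242 list medians moved by at least 1 SD between pairs, and 1 changed sign, that of the germline genes (-0.19 to 1.27 with pairs or lines left out). Median scaling lowered the all-probe median difference from 0.16 to 0.08.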
